A study of Mus musculus with 48 samples.

Results

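Ep300, Crebbp, Kat2a, Kat2b, Kat5, Kat6a, Kat6b, Kat7 and Kat8 encode lysine acetyltransferases that act on histones. These 9 genes were taken by symbol, and all 9 were found, among the 48709 gene IDs of the neuron RNA tables and the 47729 of the whole CA RNA tables (47569 in both). The mice were adult C57BL/6J animals of 4 to 6 months, labelled either Setd1b cKO or Control, and the material was the CA region of the hippocampus. RNA was sequenced from CA neurons (3 libraries labelled cKO and 3 labelled Control) and from whole CA tissue (6 and 6). ChIP-seq on fixed, sorted neuronal nuclei mapped H3K4me3 (4 cKO, 4 Control), H3K4me1 (4 and 4), H3K27ac (4 and 3) and H3K9ac (3 and 4). Setd1b encodes a methyltransferase for lysine 4 of histone H3. The Cre driver, the floxed allele carried by the controls if any, and whether each library came from its own animal are not given in the sources used here, so p-values measure only the spread between these libraries, which may be technical.

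Histone acetyltransferases move an acetyl group from acetyl-CoA to lysines of the histone tails, and the acetylated tails are bound by bromodomain and YEATS-domain proteins. p300 (Ep300) and CBP (Crebbp) acetylate lysine 27 of histone H3 at enhancers and promoters and are coactivators of CREB, a factor known for its part in hippocampal memory. Kat2a (GCN5) and Kat2b (PCAF) belong to the GNAT family and acetylate lysine 9 of histone H3 within the SAGA and ATAC complexes. The MYST family comprises Kat5 (TIP60, of the NuA4 complex), Kat6a (MOZ), Kat6b (MORF), Kat7 (HBO1) and Kat8 (MOF, of the MSL and NSL complexes).

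The neuron RNA libraries held 55.7 to 69.1 M counts and those of whole CA 14.9 to 20.1 M. Material and depth, and any difference in how the 2 kinds of RNA library were made, cannot be told apart. The labels' protocol speaks of RNA from whole tissue, and how RNA of neurons alone was obtained is not given in the sources used here. Markers of astrocytes, microglia and oligodendrocytes were far lower in neuron RNA. Summed astrocyte markers stood at 23.4 to 29.1 CPM (counts-per-million) in control neuron RNA and 1492 to 1794 in control whole CA RNA, microglial markers at 9.46 to 9.75 and 252 to 293, and oligodendrocyte markers at 109 to 125 and 4069 to 5933. Oligodendrocyte precursor markers were lower by less, at 45.1 to 47.8 CPM and 110 to 124, with 2 of 3 genes called lower and 1 higher by edgeR. Summed neuronal markers were nevertheless lower in control neuron RNA, at 4774 to 4877 CPM against 11403 to 12526. Setd1b itself, counted over the whole gene, went against the genotype labels. Its mean level was 50.1 ± 9.30 CPM (SD, n = 3) in neuron RNA labelled control and 59.9 ± 5.52 (SD, n = 3) in neuron RNA labelled cKO, and 41.1 ± 8.86 and 61.8 ± 6.33 (SD, n = 6 each) in whole CA. A count over the whole gene includes exons outside a deleted part, so it does not check the deletion, and the groups are named below by their labels.

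Promoter sequences of 8 of the 9 genes were matched in RefSeq's table of gene starts (GRCm38.p6), and Kat6a was not among them. Those of Ep300, Crebbp and Kat6b are shown because they are the most GC-rich and lie at the genes whose H3K4 methylation is described at length below, and those of Kat2b and Kat7 because they have the fewest CpG pairs of the 8. Each is the 250 bases before the start, on the strand of the gene, for Ep300 at chr15:81585964-81586213 on the plus strand, Crebbp at chr16:4213405-4213654 on the minus strand, Kat6b at chr14:21499520-21499769 on the plus strand, Kat2b at chr17:53566721-53566970 on the plus strand and Kat7 at chr11:95310247-95310496 on the minus strand. The bases shown for Crebbp and Kat6b lie inside the gene spans used below. Capitals mark the GC box GGGCGG (bound by SP factors), the CCAAT box CCAAT (bound by NF-Y) and TGACG, one arm of the cAMP response element bound by CREB, on either strand.
Ep300: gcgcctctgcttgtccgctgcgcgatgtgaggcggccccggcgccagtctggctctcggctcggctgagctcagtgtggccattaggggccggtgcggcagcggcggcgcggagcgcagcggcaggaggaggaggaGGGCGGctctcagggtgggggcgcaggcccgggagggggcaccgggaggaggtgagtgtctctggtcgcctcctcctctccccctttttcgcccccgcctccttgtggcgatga
Crebbp: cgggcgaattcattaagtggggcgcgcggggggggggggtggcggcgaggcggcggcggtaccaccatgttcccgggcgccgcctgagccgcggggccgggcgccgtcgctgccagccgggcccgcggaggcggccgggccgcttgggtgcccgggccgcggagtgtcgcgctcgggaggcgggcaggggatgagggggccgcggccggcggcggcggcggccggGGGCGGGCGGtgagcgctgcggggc
Kat6b: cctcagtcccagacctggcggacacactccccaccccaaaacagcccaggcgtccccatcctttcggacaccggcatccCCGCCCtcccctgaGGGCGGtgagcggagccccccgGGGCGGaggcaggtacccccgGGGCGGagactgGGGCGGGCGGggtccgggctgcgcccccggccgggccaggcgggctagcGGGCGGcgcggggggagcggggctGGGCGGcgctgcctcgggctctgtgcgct
Kat2b: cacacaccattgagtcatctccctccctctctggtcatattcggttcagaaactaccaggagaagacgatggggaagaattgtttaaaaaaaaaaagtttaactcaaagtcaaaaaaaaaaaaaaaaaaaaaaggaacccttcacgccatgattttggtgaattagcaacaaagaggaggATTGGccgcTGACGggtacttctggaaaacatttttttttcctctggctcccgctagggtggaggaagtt
Kat7: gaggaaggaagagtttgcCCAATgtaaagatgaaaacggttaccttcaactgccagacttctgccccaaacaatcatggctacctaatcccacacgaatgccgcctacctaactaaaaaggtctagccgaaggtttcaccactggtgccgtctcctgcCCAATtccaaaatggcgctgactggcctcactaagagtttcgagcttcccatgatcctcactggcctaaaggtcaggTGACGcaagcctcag

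GC content was 84.0% before Crebbp, 78.8% before Kat6b and 73.2% before Ep300, against a median of 52.0% over 27025 promoters of the same length. The remaining promoters ranged from 40.8% (Kat2b) to 55.2% (Kat5). CpG pairs numbered 44 before Crebbp, 27 before Kat6b and 25 before Ep300, and 8 before Kat7 and 6 before Kat2b, against a median of 6 over all promoters. The GC box was found before Ep300 (1 copy), Crebbp (2 overlapping copies), Kat6b (8 copies) and Kat8 (1 copy), and in 33% of all promoters. TGACG was found before Kat2a, Kat2b, Kat5, Kat7 and Kat8, and in 17.8% of all promoters. CCAAT was found before Kat2b, Kat5, Kat7 and Kat8, and in 34.5% of all promoters. The full cAMP response element TGACGTCA was in none of the 8 and in 1.6% of all promoters. A match is a run of letters and does not show a bound site.

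All 9 genes were detected in every RNA library. The family divided by material: Crebbp, Kat6b, Kat8, Ep300 and Kat2a were higher in control neuron RNA than in control whole CA RNA, and Kat7, Kat5, Kat2b and Kat6a were lower. Genes that differed between the materials were the rule, since 83.6% of the 16859 genes tested passed an adjusted p of 0.05 in edgeR's quasi-likelihood test, 43.6% higher and 40.1% lower. With 9 of 9 called, the acetyltransferase genes therefore stood near the background in number. The share of all genes whose control libraries do not overlap between the materials was not computed. A lack of overlap, given below for single genes, is therefore no trait of these genes by itself. Their median log2 fold change was 0.30, against 0.07 over all genes. In bulk RNA, fewer cells of a type and less RNA per cell cannot be told apart.

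Of the p300/CBP pair, Ep300 stood at 151, 125 and 129 CPM in the control neuron libraries (replicates 1 to 3). In control whole CA its lowest, median and highest values were 81.0, 93.5 and 108 CPM. Every neuron library lay above every whole CA library, and the log2 fold change was 0.53 ± 0.0858 (SE, adjusted p = 2.14e-05, edgeR). Crebbp stood at 148, 121 and 133 CPM in control neurons, against 60.9, 71.2 and 81.9 (lowest, median, highest) in control whole CA. The groups did not overlap, and its difference of 0.93 ± 0.0906 (SE, adjusted p = 6.16e-08, edgeR) was the widest among the 9 genes.

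Kat2a and Kat2b, the GNAT pair, differed in opposite directions. Kat2a was at 105, 83.6 and 88.3 CPM in control neurons and at 73.0, 75.1 and 81.1 (lowest, median, highest) in control whole CA. These groups did not overlap (log2 fold change 0.30 ± 0.0781, SE, adjusted p = 0.00226, edgeR), whereas the materials did overlap for Kat2a in the libraries labelled cKO. Kat2b was at 14.4, 19.8 and 17.97 CPM in control neurons and at 19.4, 21.5 and 24.2 in control whole CA, with overlapping groups and a log2 fold change of -0.30 ± 0.106 (SE, adjusted p = 0.0148, edgeR). That call was lost without control neuron replicate 1 (-0.18, adjusted p = 0.105, edgeR), with library size as the only scaling (-0.14, adjusted p = 0.235) and, at an adjusted p of 0.05003, with no filter on low counts.

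Within the MYST family, Kat6b and Kat8 were higher in neuron RNA. Kat6b was at 144, 122 and 132 CPM in control neurons against 65.1, 74.2 and 80.4 (lowest, median, highest) in control whole CA, and Kat8 at 32.1, 28.1 and 29.4 against 15.4, 18.3 and 19.5. Neither gene's groups overlapped. The log2 fold changes were 0.87 ± 0.0749 for Kat6b (SE, adjusted p = 1.24e-08, edgeR) and 0.75 ± 0.0902 for Kat8 (SE, adjusted p = 7.61e-07).

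Kat7 and Kat5 were lower in neuron RNA, again without overlap. Kat7 was at 64.6, 60.5 and 60.03 CPM in control neurons and at 93.3, 98.3 and 110 in control whole CA (lowest, median, highest), a log2 fold change of -0.68 ± 0.0734 (SE, adjusted p = 2.02e-07, edgeR). Kat5 was at 30.8, 26.8 and 30.4 CPM against 36.9, 41.3 and 44.4, a log2 fold change of -0.46 ± 0.0846 (SE, adjusted p = 9.55e-05, edgeR). Kat6a was at 93.0, 82.0 and 81.7 CPM in control neurons and at 88.7, 98.0 and 112 in control whole CA, with overlapping groups. Its log2 fold change of -0.20 ± 0.0837 (SE, adjusted p = 0.04, edgeR) did not hold with library size as the only scaling (-0.03, adjusted p = 0.732), with no filter (-0.13, adjusted p = 0.191), without control neuron replicate 2 or 3 (both -0.16, adjusted p = 0.131 and 0.159) or in the libraries labelled cKO (-0.19, adjusted p = 0.0603). The non-coding gene Gm46036 overlaps Kat6a in the annotation, and without a statement on strand the reads of the pair cannot be told apart. Library size as the only scaling moved the median of all genes from 0.07 to 0.23 and the split of calls to 48.7% higher and 35.1% lower, and none of the 9 directions changed under it. The glial and endothelial marker sums move with this comparison, and so do sums for some types of neuron. Dentate granule markers were at 136 to 162 CPM in control neuron RNA and 53.5 to 82.4 in control whole CA. Interneuron markers were at 468 to 552 and 799 to 1002, with 4 of 6 genes called lower and 1 higher by edgeR. CA1 pyramidal sums overlapped, at 373 to 454 and 404 to 489, with 2 of 3 genes called lower. The part of all these markers in the differences of the 9 genes was not tested.

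**Figure D1:**
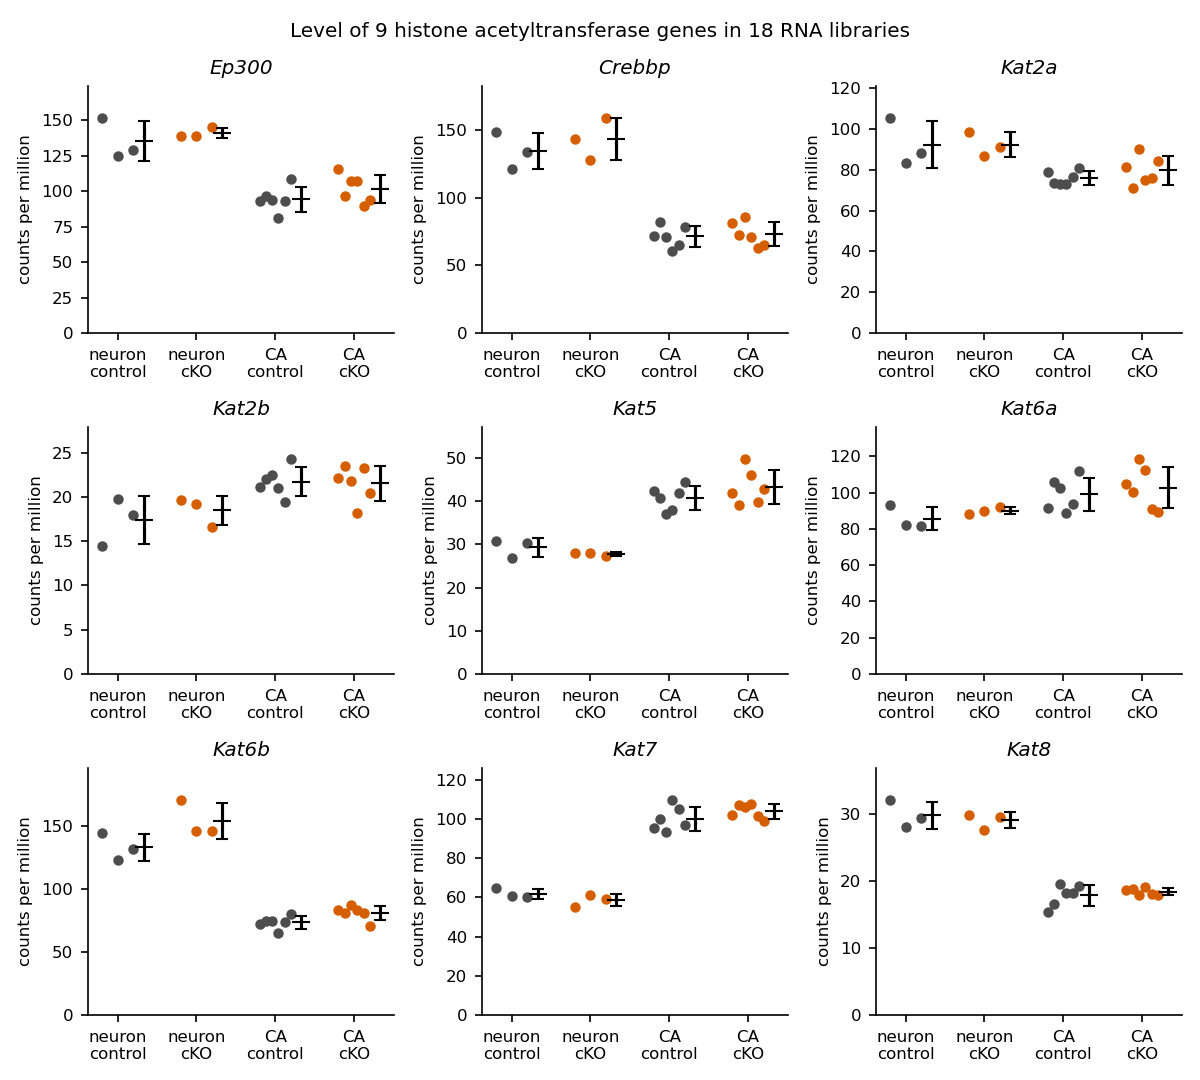
Level of each of the 9 genes in CPM (counts-per-million, vertical axis from 0) in each of the 18 RNA libraries, grouped by material (neuron, or whole CA as "CA") and genotype label, with grey points for control, orange points for cKO and bars for the mean and SD. Crebbp, Kat6b, Kat8 and Ep300 sit higher in neuron RNA, Kat7 and Kat5 sit higher in whole CA, and the genotypes lie close together.

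Partner genes of the 9 enzymes were counted in lists by complex. Further lists held other acetyltransferases, readers of acetyl-lysine and genes that supply acetyl-CoA. Over all these lists together, 41 of 86 genes were higher and 28 lower in control neuron RNA, and 17 did not pass. Among all genes 43.6% were higher and 40.1% lower, the background for the counts that follow. The median of the 86 genes was 0.16 against 0.07 over all genes. Among the partners of Kat6a, Kat6b and Kat7, 7 of 9 were higher (Ing4, Jade3, Brpf1, Brpf3, Brd1, Ing5 and Jade1, from 0.21 to 2.10 on the log2 scale) and Meaf6 was lower (-0.45). Of 19 SAGA and ATAC subunits, which work with Kat2a and Kat2b, 11 were higher (Mbip, Yeats2, Atxn7, Supt20, Trrap, Tada2a, Taf6l, Zzz3, Tada1, Tada3 and Sgf29) and 5 lower (Supt3, Dr1, Atxn7l3, Tada2b and Usp22). Of 17 NuA4 subunits, which work with Kat5, 8 were higher (Mrgbp, Mbtd1, Trrap, Actl6a, Brd8, Ep400, Epc1 and Dmap1) and 5 lower (Epc2, Meaf6, Vps72, Yeats4 and Morf4l2). Of 11 MSL and NSL subunits, which work with Kat8, 6 were higher (Kansl2, Ogt, Mcrs1, Kansl3, Wdr5 and Kansl1) and 3 lower (Phf20, Msl1 and Hcfc1). Of 9 partners of CBP and p300, 5 were higher (Crtc2, Cited4, Atf1, Crtc3 and Crtc1, of which the Crtc proteins are CREB coactivators) and 3 lower (Cited1, Crem and Cited2).

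Of 7 genes that supply acetyl-CoA, 4 were called lower and 1 higher in control neuron RNA, where 40.1% of all genes were lower and 43.6% higher. Pdha1 (-1.88) and Dlat (-1.24), subunits of pyruvate dehydrogenase, Acly (-1.23), which makes cytosolic acetyl-CoA from citrate, and Acss1 (-0.45) were lower on the log2 scale, and the citrate carrier Slc25a1 (0.85) was higher, of 7 genes. Of 7 readers of acetyl-lysine, Mllt1, Brd2, Yeats4 and Mllt3 were lower and Yeats2 and Brd3 higher. Of 11 other acetyltransferases, Hat1, which acetylates newly made histone H4, Atf2, Ncoa1, Naa60 and Gtf3c4 were lower, and Naa40, Ncoa3 and Clock were higher. All these calls are at an adjusted p under 0.05 in edgeR's test, where 83.6% of all genes passed (43.6% higher and 40.1% lower).

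None of the 9 acetyltransferase genes passed the test between the libraries labelled cKO and control in either material. In neuron RNA, 0 of 9 were called by edgeR, where 2.75% of 19622 genes were. An unadjusted p under 0.05 was found for 0 of 9, and for 3379 of the 19622. In whole CA RNA, 0 of 9 were called, where 4.17% of 15362 genes were. Here 1 of 9 (Kat6b) had an unadjusted p under 0.05, as did 2410 of the 15362. DESeq2 also called 0 of 9 in each material. The members' median log2 fold change was 0.05 in neuron RNA (0.02 over all genes) and 0.05 in whole CA RNA (0.00 over all genes), with 5 of 9 and 8 of 9 above 0.

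Kat6b came closest to a genotype difference in both materials. Its 3 neuron libraries labelled cKO stood at 170, 146 and 146 CPM, and those labelled control at 144, 122 and 132. The groups did not overlap, as was the case for 23.4% of all genes with this number of libraries. The log2 fold change was 0.20 ± 0.0963 (SE, 95% interval -0.02 to 0.42, adjusted p = 0.325, edgeR). In whole CA, Kat6b was at 70.9, 82.1 and 87.0 CPM (lowest, median, highest) in libraries labelled cKO and at 65.1, 74.2 and 80.4 in those labelled control. These groups overlapped, with a log2 fold change of 0.14 ± 0.0605 (SE, 95% interval 0.01 to 0.26, adjusted p = 0.28, edgeR).

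Ep300 and Crebbp overlapped between the genotypes in both materials. Ep300 was at 139, 139 and 145 CPM in neuron libraries labelled cKO, within the control range of 125 to 151. The 95% interval of its log2 fold change ran from -0.16 to 0.25 in neuron RNA, and from -0.05 to 0.25 in whole CA, where the cKO libraries stood at 89.9, 102 and 116 CPM (lowest, median, highest). Crebbp was at 143, 128 and 159 CPM in neuron libraries labelled cKO, overlapping the controls (log2 fold change 0.08, 95% interval -0.16 to 0.32). In whole CA, Crebbp differed by 0.03 (95% interval -0.15 to 0.20).

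The GNAT pair and the remaining MYST genes also overlapped between the genotypes in both materials, and in whole CA RNA no member separated them (3.13% of all genes did). Kat2a was at 98.9, 86.6 and 91.4 CPM and Kat2b at 19.6, 19.1 and 16.6 CPM in neuron libraries labelled cKO. Their log2 fold changes were -0.01 and 0.07 in neuron RNA and 0.06 and -0.02 in whole CA. Kat5 was at 28.1, 27.9 and 27.3 CPM in neuron libraries labelled cKO, Kat6a at 87.9, 90.0 and 91.9, Kat7 at 55.3, 61.0 and 59.4, and Kat8 at 29.9, 27.7 and 29.6. The log2 fold changes of Kat5 and Kat7 were both -0.09 in neuron RNA, and 0.08 and 0.05 in whole CA. Those of Kat6a were 0.06 and 0.05, and those of Kat8 -0.05 and 0.04, in neuron RNA and whole CA.

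The genotype difference was compared between the materials in 1 fit of all 18 RNA libraries. Of the 9 genes, 0 passed, where 0.16% of 17523 genes did. An unadjusted p under 0.05 was found for 0 of 9, and for 1421 of the 17523. Kat5 had the widest difference of differences, -0.17 ± 0.114 (SE, neuron minus whole CA, adjusted p = 0.68, edgeR). Several marker sums did not overlap between the genotype labels.

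In neuron RNA the summed markers of CA1 pyramidal cells were at 373 to 454 CPM in control and 291 to 355 in cKO libraries (1 of 3 genes called lower by edgeR), of dentate granule cells at 136 to 162 and 104.47 to 135 (2 of 3 lower), of oligodendrocyte precursors at 45.1 to 47.8 and 38.9 to 41.4 (0 of 3), of microglia at 9.46 to 9.75 and 8.38 to 9.38 (0 of 5) and of endothelium at 2.53 to 2.69 and 3.05 to 3.89 (0 of 3 tested). Not all genes of a list went the way of its sum. Of the 3 oligodendrocyte precursor genes, 1 had a negative log2 fold change and 2 a positive one. An unadjusted p under 0.05 (edgeR) was found for 2 of these 3. Of the 3 endothelial genes tested, 2 were negative and 1 positive. In whole CA RNA, microglial markers were at 252 to 293 in control and 217 to 234 in cKO libraries (1 of 5 lower, 4 at an unadjusted p under 0.05). The fibroblast sum was at 39.4 to 48.1 and 12.3 to 14.5 in neuron RNA, and at 59.2 to 97.4 and 20.6 to 25.5 in whole CA, where in each material only Dcn of its 4 genes was called (-1.92 and -2.25, adjusted p = 4.83e-05 and 2.63e-09, edgeR). None of these markers was at 0 in all libraries of a group. The part of these markers in the values of the 9 genes was not tested.

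**Figure D2:**
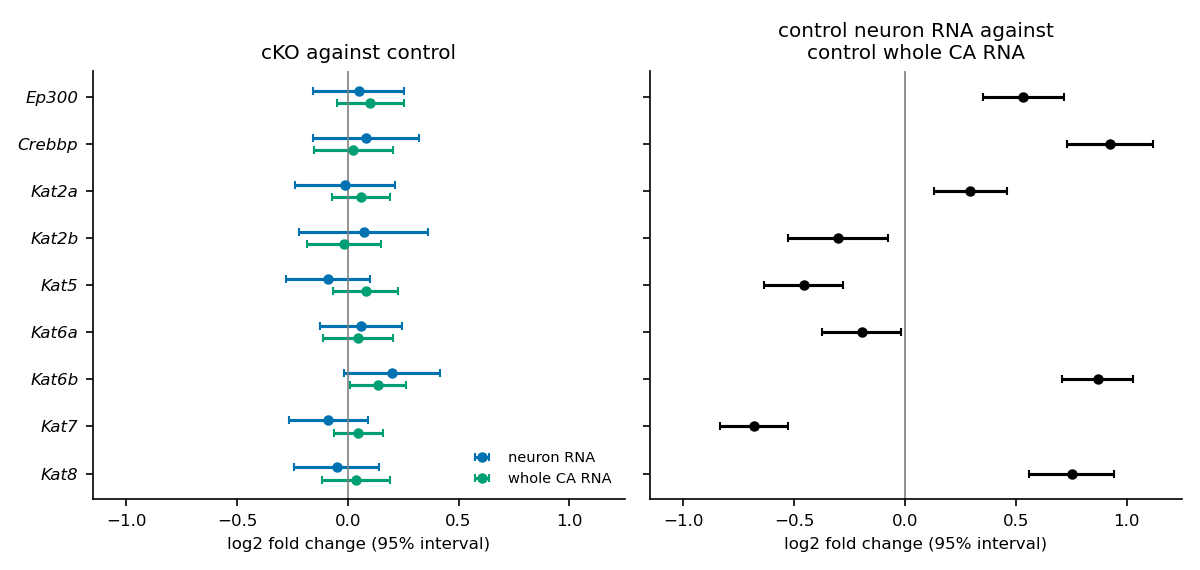
Log2 fold change with its 95% interval (horizontal axis) for each gene, on the left for libraries labelled cKO against control in neuron RNA (blue) and whole CA RNA (green), and on the right for control neuron RNA against control whole CA RNA. The intervals on the left span 0 except that of Kat6b in whole CA (0.01 to 0.26), and those on the right lie clear of 0 on either side.

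The genes of all these lists, partners and the further lists together, were tested for genotype in the same fits. In neuron RNA 0 of 86 were called by edgeR, where 2.75% of all genes were. At an unadjusted p under 0.05 there were 4 of 86, against 3379 of 19622 genes. The median of the 86 genes was -0.01 against 0.02 over all genes. The genes of smallest p in each list were Yeats4 (-0.26, adjusted p = 0.178), Jade1 (0.30, 0.196), Atf2 (0.33, 0.277), Mcrs1 (-0.20, 0.287), Slc25a1 (-0.19, 0.304), Tada2a (0.19, 0.306) and Crtc3 (-0.22, 0.317). In whole CA RNA, 2 of 85 were called, where 4.17% of all genes were. Dlat, the acetyltransferase subunit of pyruvate dehydrogenase, fell by 0.24 on the log2 scale (SE 0.0513, adjusted p = 0.00972, edgeR), and Brpf3, the scaffold of a Kat7 complex, rose by 0.26 (SE 0.0651, adjusted p = 0.0257). The lists with no call had as their genes of smallest p Kat14, another acetyltransferase of the ATAC complex, at 0.25 (adjusted p = 0.0705), Morf4l2 at -0.14 (0.125), Crtc2 at 0.18 (0.192), Tada2a at 0.18 (0.218), Phf20 at -0.12 (0.234) and Yeats4 at -0.14 (0.362). Brpf3 lost its call without cKO replicate 1 or 6 or control replicate 3 or 5 of whole CA (0.24 to 0.25, adjusted p = 0.0531 to 0.0701). In the test of the difference between materials, 0 of 86 were called, where 0.16% of all genes were. There 3 of 86 (Mcrs1, Dlat and Crtc2) had an unadjusted p under 0.05, as did 1421 of 17523 genes.

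Levels were also compared over the 18 RNA libraries after each library was centred on the mean of its material and genotype, as a description with library depth shared by all genes. Ep300 and Crebbp moved together (Pearson r = 0.808), and so did Ep300 and Kat6a (r = 0.826) and Crebbp and Kat6a (r = 0.798). Kat2b ran against Kat7 (r = -0.465), Kat5 (r = -0.348) and Kat2a (r = -0.321). Over the 36 pairs of members, 24 correlations were positive and the median was 0.245. Control neuron replicate 1 was the highest control neuron library for every member except Kat2b, for which it was the lowest. The correlations without that library, and those over all pairs of genes, were not computed. The 2 genes most like each member among 14967 were Arid1a and Sec14l2 for Ep300 (r = 0.903 and 0.891), Ank3 and Prrc2c for Crebbp (0.914 and 0.905), Mospd3 and Nosip for Kat2a (0.895 and 0.893), and Dpy19l4 and E2f5 for Kat2b (0.952 and 0.929). For the MYST genes they were Gtf2f1 and Clk2 for Kat5 (0.858 and 0.853), Surf2 and Cep350 for Kat6a (0.951 and 0.936), Dicer1 and Ttc13 for Kat6b (0.876 and 0.869), Lynx1 and Kantr for Kat7 (0.875 and 0.838), and Gpt2 and Rnf169 for Kat8 (0.844 and 0.835).

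At the gene starts themselves, peaks of all 4 marks were found within 2000 bp of all 8 starts in every library. In control neurons the tallest H3K27ac peak there ranked high among all peaks of its library by the authors' fold enrichment, at a mean percentile of 99.9 for Kat6b, 99.8 for Ep300 and Kat5, and 78.3 for Kat2b, the lowest of the 8. Kat7 was the only one of the 8 whose tallest peak had a fold that did not overlap between the genotype labels, for H3K4me3 (52.5 to 62.6 in control and 25.5 to 44.98 in cKO libraries) and for H3K27ac (19.4 to 26.9 and 10.6 to 14.6). Its mean percentile was 94.1 in control and 78.4 in cKO libraries for H3K4me3, and 99.7 and 95.5 for H3K27ac. These heights were not tested, and the share of all starts whose tallest peak separates the genotypes was not computed. They therefore show no change by themselves. The percentiles also depend on the length of each peak list. H3K4me1, a mark that typically flanks active starts, left the start bases of Ep300, Crebbp, Kat6b and Kat7 uncovered in all 8 libraries. The Crebbp start was also outside the H3K27ac and H3K9ac peaks in all 7 libraries of each mark, and inside an H3K4me3 peak in 2 of 8. This start, at 4213404 on the minus strand, lies inside the gene span, which runs to 4213957. The Kat2a start was likewise outside the H3K9ac peaks in all 7 libraries.

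The length covered by peaks within 2000 bp of the start was compared between genotypes with limma on log2(covered bp + 100). For each mark, 0 of 8 acetyltransferase genes were called, where 13.8% of starts were for H3K4me3 (13.2% lower and 0.598% higher), 1.59% for H3K4me1, 0.525% for H3K9ac and 0.431% for H3K27ac. The counts at an unadjusted p under 0.05 were 2, 3, 2 and 1 in the same order. Over all starts they were 4265 of 14550, 2663 of 17898, 2160 of 14865 and 1796 of 14393. The genotypes did not overlap for 0 of 8 genes in H3K4me3 (22% of all starts), 2 of 8 in H3K4me1 (9.91%), 2 of 8 in H3K9ac (14.5%) and 0 of 8 in H3K27ac (13%). Their medians were -0.04 for H3K4me3 (-0.06 over all starts), -0.01 for H3K4me1 (0.05), -0.20 for H3K9ac (-0.04) and -0.07 for H3K27ac (-0.06). Total covered length over the genome was 47.4 to 51.2 Mb in control and 39.6 to 49.2 Mb in cKO libraries for H3K4me3, and the ranges of the genotypes overlapped for all 4 marks. A single input library served each genotype, so input and genotype cannot be told apart.

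For the acetylation marks, Crebbp H3K9ac had the smallest p. The control libraries had 2154, 2356, 2198 and 2082 bp in H3K9ac peaks around the Crebbp start, and the cKO libraries 1900, 1698 and 1825 bp. No cKO library reached the control range, and the log2 difference was -0.27 ± 0.0662 (SE, adjusted p = 0.167, limma). With every window covered to under 50% of its length set to 0, Crebbp H3K9ac was called (-4.52, adjusted p = 2.22e-08), where 3.66% of starts were called and 3.44% were lower. That minimum falls between the control and the cKO values at Crebbp, so all cKO libraries were set to 0 and the size of this difference comes from the setting. H3K9ac around Ep300 also separated the genotypes, at 3151 to 3562 bp in control and 2836 to 3136 bp in cKO libraries (-0.15, adjusted p = 0.361). Around Kat2b, H3K27ac covered 1560, 1248 and 1577 bp in control libraries and 521, 696, 1374 and 467 bp in cKO libraries. With 1 cKO library inside the control range, the log2 difference was -0.95 ± 0.338 (SE, adjusted p = 0.345, limma).

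H3K4me1 close to the starts gave 4 positive and 4 negative differences, those of Ep300, Crebbp and Kat2b among the positive ones, and none passed the test. Around Ep300 it covered 1416, 886, 1438 and 1256 bp in control and 1885, 1773, 1685 and 1633 bp in cKO libraries. All cKO libraries were higher than all control libraries, and the difference was 0.47 ± 0.15 (SE, adjusted p = 0.212, limma). Around Crebbp the values were 1835, 1548, 1846 and 1984 bp in control and 2451, 2354, 2254 and 1981 bp in cKO libraries (0.31, adjusted p = 0.218). Within 1000 bp of the Crebbp start this difference was called (1.31, adjusted p = 0.0149, limma), where 0.968% of starts were (0.794% higher). Kat2b H3K4me1 was at 1934, 1871, 1826 and 1692 bp in control and 3013, 2828, 1907 and 2699 bp in cKO libraries (0.47, adjusted p = 0.199), and was called without cKO replicate 3 (0.61, adjusted p = 0.0193). Kat2a was lower without overlap, from 3794 bp to the full window in control and from 3621 to 3766 bp in cKO libraries (-0.09, adjusted p = 0.493).

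**Figure D3:**
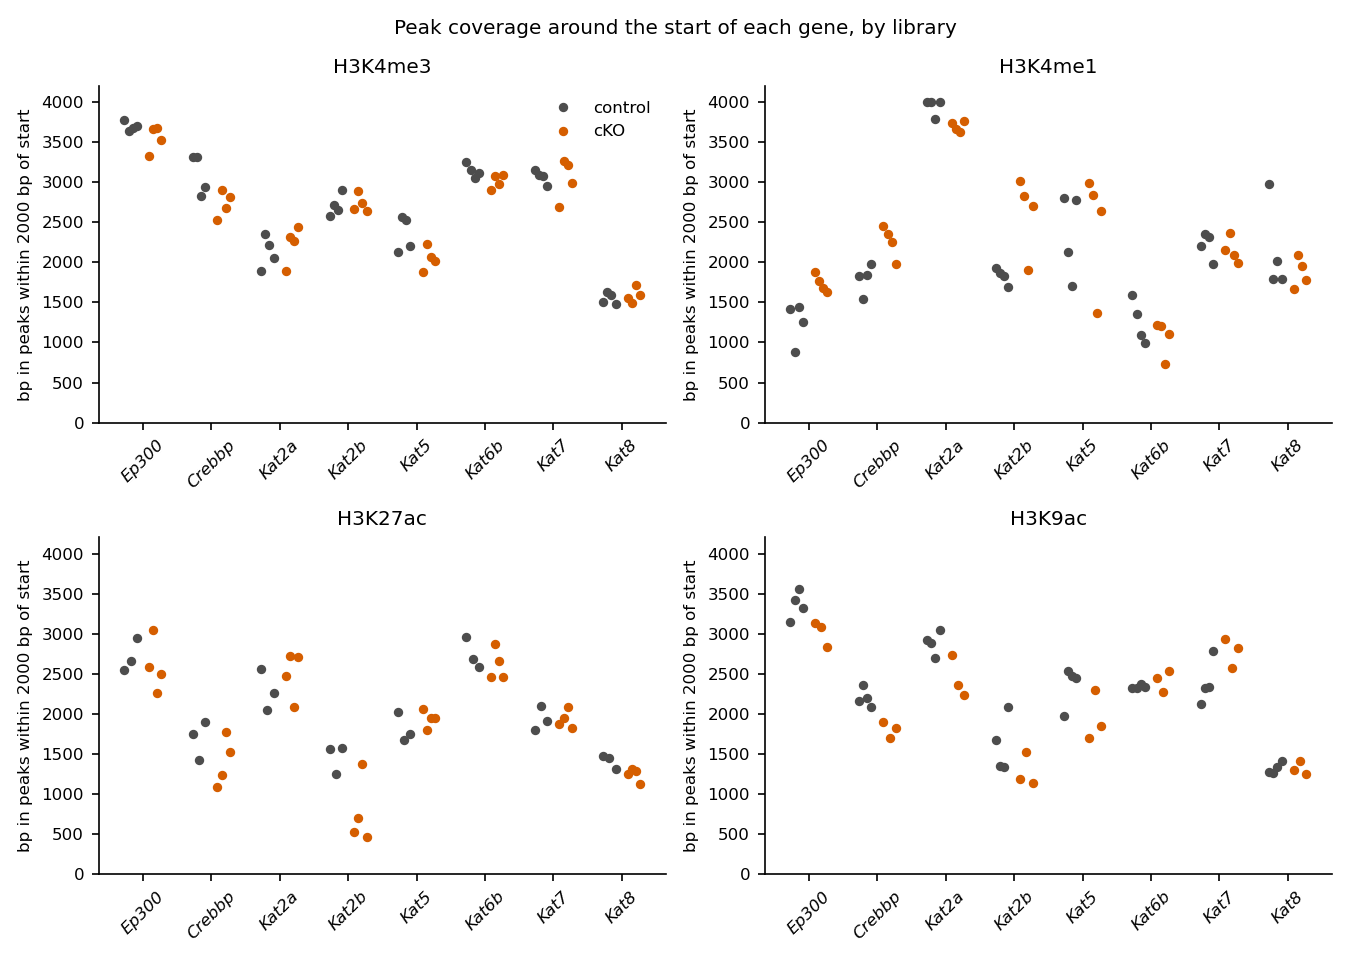
Base pairs in called peaks within 2000 bp of each gene's start (vertical axis, linear from 0) in each ChIP library, 1 panel per mark, grey for control and orange for cKO. H3K4me3 points of the genotypes lie close together at most starts, Ep300 H3K4me1 points are higher in all 4 cKO libraries, and Crebbp H3K9ac points are lower in all 3.

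The whole length of the peaks that touch the window gave another picture, a comparison added after the data were seen. For H3K4me3 the genotypes did not overlap at 2 of 8 genes (31.1% of all starts), and for H3K4me1 at 2 of 8 (16.3%). H3K4me3 peaks at the Ep300 start were 4256, 4097, 4888 and 4651 bp long in control libraries and 3329, 3731, 3700 and 3526 bp in cKO libraries. All cKO peaks were shorter, and the log2 difference was -0.31 (adjusted p = 0.0108, limma), where 27.1% of starts were called and 26% were lower. H3K4me1 peaks at Crebbp were 8064, 8985, 8348 and 10816 bp long in control and 3880, 3862, 3241 and 2711 bp in cKO libraries. These groups lay far apart, with a log2 difference of -1.38 (adjusted p = 0.00232), where 7.22% of starts were called and 5.89% were lower. H3K4me1 peaks at Kat6b were 4744, 3810, 4070 and 3237 bp in control and 1905, 1933, 1270 and 2133 bp in cKO libraries, without overlap (-1.10, adjusted p = 0.0141). Thus at Crebbp the same mark covered more within 1000 bp of the start and less over the full peaks in the libraries labelled cKO. A window of 5000 bp to either side likewise gave calls for Ep300 H3K4me3 (-0.44, adjusted p = 0.00116, where 28.1% of starts were called) and Kat6b H3K4me1 (-1.12, adjusted p = 0.015, where 6.58% were and 5.28% lower).

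Coverage was then measured over the span of each gene, for all 9 genes, also after the data were seen. H3K4me3 covered less of Ep300, Kat6a, Crebbp and Kat5 in the libraries labelled cKO: 4 of 9 genes were called lower and 0 higher, where 20.4% of 22207 genes were called, 19.2% lower and 1.18% higher. The median log2 difference was -0.23 over the 9 genes and -0.06 over all genes. H3K4me1 was called lower in 1 of 9 (Ep300), where 5.6% of 27709 genes were called and 4.12% were lower, with medians of -0.33 and 0.01.

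Ep300 spans chr15:81586209-81652077, or 65869 bp. H3K4me3 peaks covered 4.79%, 4.36%, 4.89% and 5.31% of it in control libraries and 2.86%, 3.14%, 3.08% and 2.87% in cKO libraries. These ranges lay apart, as for 24.9% of genes, and the log2 difference was -0.67 ± 0.0633 (SE, adjusted p = 0.000654, limma). It was called under all 12 alternatives run for this measure. When the span was divided into 10 equal segments from start to end, all of this H3K4me3 lay in segment 1, of which 43.6% to 53.1% was covered in control and 28.6% to 31.4% in cKO libraries. Each cKO library had 1 H3K4me3 peak in Ep300, and the control libraries had 1 to 4. The segments here and below were picked after the data were seen, and the share of segments over all genes that separate the genotypes was not computed. Some segments separated the other way, higher in cKO libraries. These were segment 10 of Kat6b for H3K4me3 (2.38% to 2.82% in control and 3.01% to 3.54% in cKO libraries), segments 8 and 10 of Kat6b for H3K9ac, and segment 1 of Kat5 for H3K9ac.

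H3K4me1 in Ep300 showed the widest difference over a gene span of any mark and member. It covered 23.5%, 25.7%, 22.2% and 24.5% of the gene in control libraries and 9.55%, 6.93%, 6.09% and 6.36% in cKO libraries. The cKO values were all far below the control range, with a log2 difference of -1.73 ± 0.144 (SE, 95% interval -2.07 to -1.39, adjusted p = 0.00176, limma). With peaks of a −log10 q-value of at least 5, Ep300 was not tested, since too few libraries had such a peak there. Of the 8757 genes tested under that setting, 548 were called higher and 7 lower. Under the other alternatives Ep300 H3K4me1 kept its call. The difference lay in the first part of the gene: segment 2 was covered to between 20.6% and 61.2% in control libraries and listed no peak in any cKO library, and segment 3 to between 63.1% and 89.1% in control and 4.49% to 14.7% in cKO libraries. Segment 10 was covered to a like extent, 22.9% to 38.4% and 29.6% to 34.6%. Ep300 RNA in neurons differed by 0.05 on the log2 scale between the same labels (95% interval -0.16 to 0.25).

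Kat6a (chr8:22859442-22943259) had 3.64%, 4.36%, 4.35% and 4.61% of its span in H3K4me3 peaks in control libraries and 2.34%, 2.80%, 2.41% and 2.85% in cKO libraries. No cKO library reached the control range (log2 difference -0.68 ± 0.0954, SE, adjusted p = 0.00313, limma). With peaks of a −log10 q-value of at least 5 the difference was -0.26 (adjusted p = 0.217). The segment at the lower coordinate was covered by H3K4me3 to between 25.1% and 36.9% in control and 13.4% to 19.1% in cKO libraries, and by H3K4me1 to between 87.3% and 89.4% and 22.3% to 28%. Over the whole of Kat6a, H3K4me1 covered 36.0% to 40.9% in control and 24.6% to 34.8% in cKO libraries, without overlap and not called (-0.34, adjusted p = 0.133).

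Crebbp (chr16:4081334-4213957) had 1.89%, 1.79%, 1.48% and 1.80% of its span in H3K4me3 peaks in control and 1.18%, 1.41%, 1.28% and 1.34% in cKO libraries. The groups did not overlap (-0.40 ± 0.0852, SE, adjusted p = 0.0181, limma). Its call was lost without control replicate 2 or 4 (both -0.38, adjusted p = 0.0517 and 0.0524). H3K4me1 covered 69.6% to 82.0% of segment 1 of Crebbp in control and 22.2% to 43.4% in cKO libraries, and 30% to 36.3% and 21.5% to 32.1% of the whole gene, where the groups overlapped (-0.26, adjusted p = 0.291).

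Kat5 (chr19:5603014-5611556) had 28.9%, 30.7%, 31.2% and 28.3% of its span in H3K4me3 peaks in control libraries and 22%, 26.6%, 24.6% and 23.7% in cKO libraries. Again no cKO library reached the control range (-0.29 ± 0.0613, SE, adjusted p = 0.0175, limma). Its call was lost without control replicate 2 or 3 (adjusted p = 0.0506 and 0.0504) and with peaks of a −log10 q-value of at least 5 (-0.26, adjusted p = 0.0523). Segments 2 and 3 of Kat5 were covered in full in all 8 libraries, and the difference lay at the edge of the peak, with 35.2% to 80.1% of segment 4 covered in control and 3.86% to 30% in cKO libraries. Segment 10, next to the neighbouring gene Rnaseh2c, was covered to 6.56% to 39.1% and 0 to 5.39%.

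**Figure D4:**
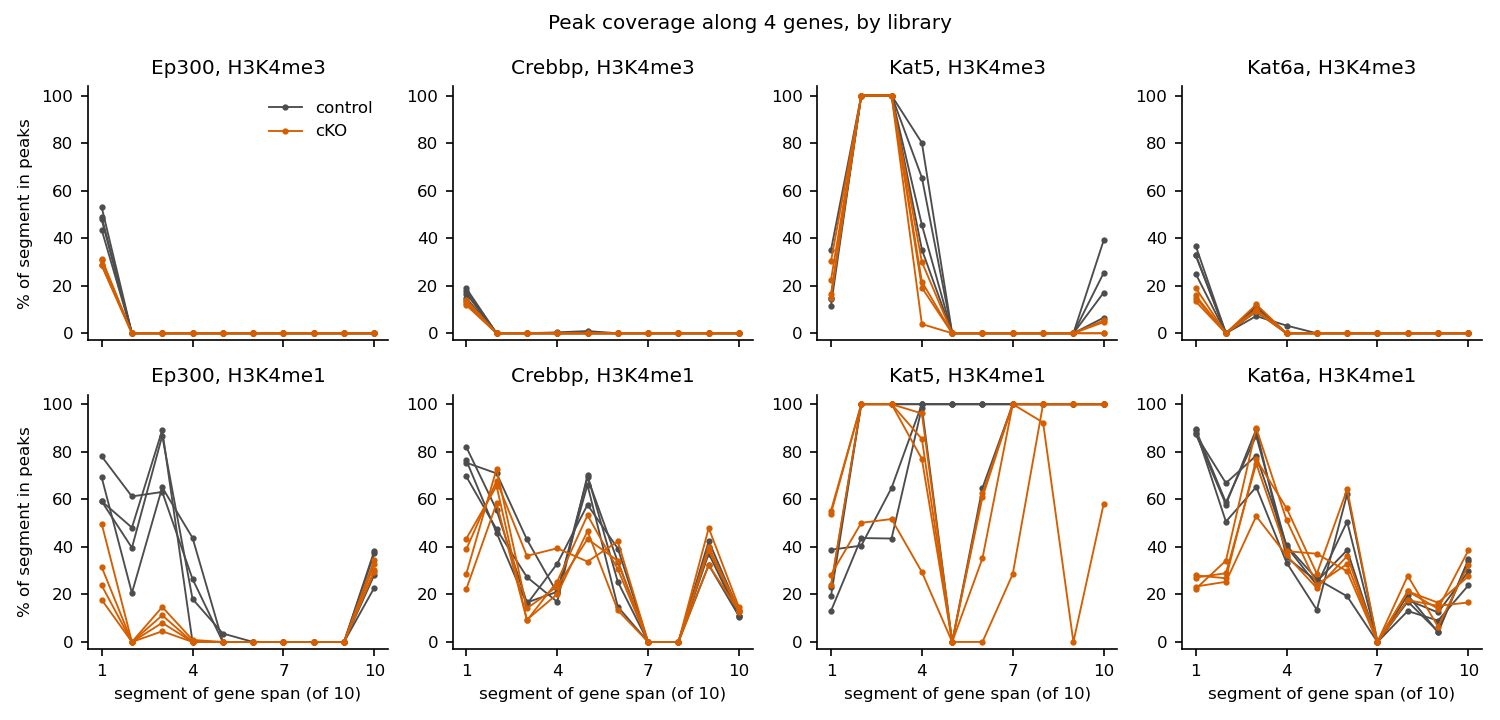
Percent of each of 10 equal segments of the gene span under called peaks (vertical axis), from the gene's start (segment 1) to its end (segment 10), except that Kat6a is counted from its lower coordinate, with 1 line per library, grey for control and orange for cKO. H3K4me3 is lower in segment 1 of Ep300 (28.6% to 31.4% in cKO, 43.6% to 53.1% in control), and H3K4me1 is lower over segments 1 to 3 of Ep300 and in segment 1 of Crebbp and Kat6a.

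The other 5 genes were not called for H3K4me3 over their spans. Kat6b differed by -0.23 (adjusted p = 0.129, limma), Kat2a by -0.13 (adjusted p = 0.311), Kat7 by -0.05 (adjusted p = 0.704) and Kat2b by 0.08 (adjusted p = 0.464). Kat8, with 6.76% to 7.21% of its span covered in control and 6.63% to 7.42% in cKO libraries, had a 95% interval of -0.09 to 0.09. H3K4me1 over Kat7 (chr11:95271853-95310246) was at 21.4%, 18.4%, 20.6% and 24.1% in control and 18.2%, 12.2%, 8.77% and 11.9% in cKO libraries. Those groups did not overlap, as for 14.8% of genes, and Kat7 passed without cKO replicate 1 (-0.94, adjusted p = 0.0308) but not with all libraries (-0.75 ± 0.214, SE, adjusted p = 0.0964). Kat2a H3K4me1, at 26% to 39.2% in control and 21.2% to 25.5% in cKO libraries, did not overlap either (-0.36, adjusted p = 0.181).

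Acetylation over the gene spans was called in 0 of 9 genes for H3K27ac, where 0.592% of 21773 genes were, and in 0 of 9 for H3K9ac, where 1.22% of 21993 genes were. An unadjusted p under 0.05 was found for 2 of 9 in H3K27ac (3286 of all genes) and 3 of 9 in H3K9ac (3760 of all genes). The difference was negative in 6 of 9 for H3K27ac, with a median of -0.20 against -0.08 over all genes, and in 8 of 9 for H3K9ac, with a median of -0.18 against 0.00. H3K27ac covered 19.1%, 19.5% and 14.7% of Kat8 (chr7:127912517-127925838) in control libraries and 9.86%, 12.3%, 11.5% and 11.7% in cKO libraries, the smallest p of the 9 (-0.61 ± 0.127, SE, adjusted p = 0.135, limma). Both ranges lay apart, as for 14.4% of genes. H3K27ac over Kat2b covered 1.69%, 1.45% and 1.49% in control and 0.492%, 0.657%, 1.30% and 0.441% in cKO libraries, again without overlap (-1.11, adjusted p = 0.244). Kat2b passed without cKO replicate 3 (-1.41, adjusted p = 0.0439).

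For H3K9ac over the gene spans, the smallest p was that of Kat2a, and Kat6b was the only gene with a positive difference; neither passed the test. Over Kat2a (chr11:100704746-100712485) it covered 30.2%, 32.4%, 41.5% and 49.3% in control and 26.2%, 23.1% and 19.2% in cKO libraries (-0.70, adjusted p = 0.163, limma). Over Kat6b (chr14:21499216-21672478) it covered 3.62%, 4.94%, 5.16% and 4.95% in control and 6.83%, 6.19% and 5.94% in cKO libraries (0.44, adjusted p = 0.202). Neither gene's groups overlapped, as for 15.8% of genes.

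**Figure D5:**
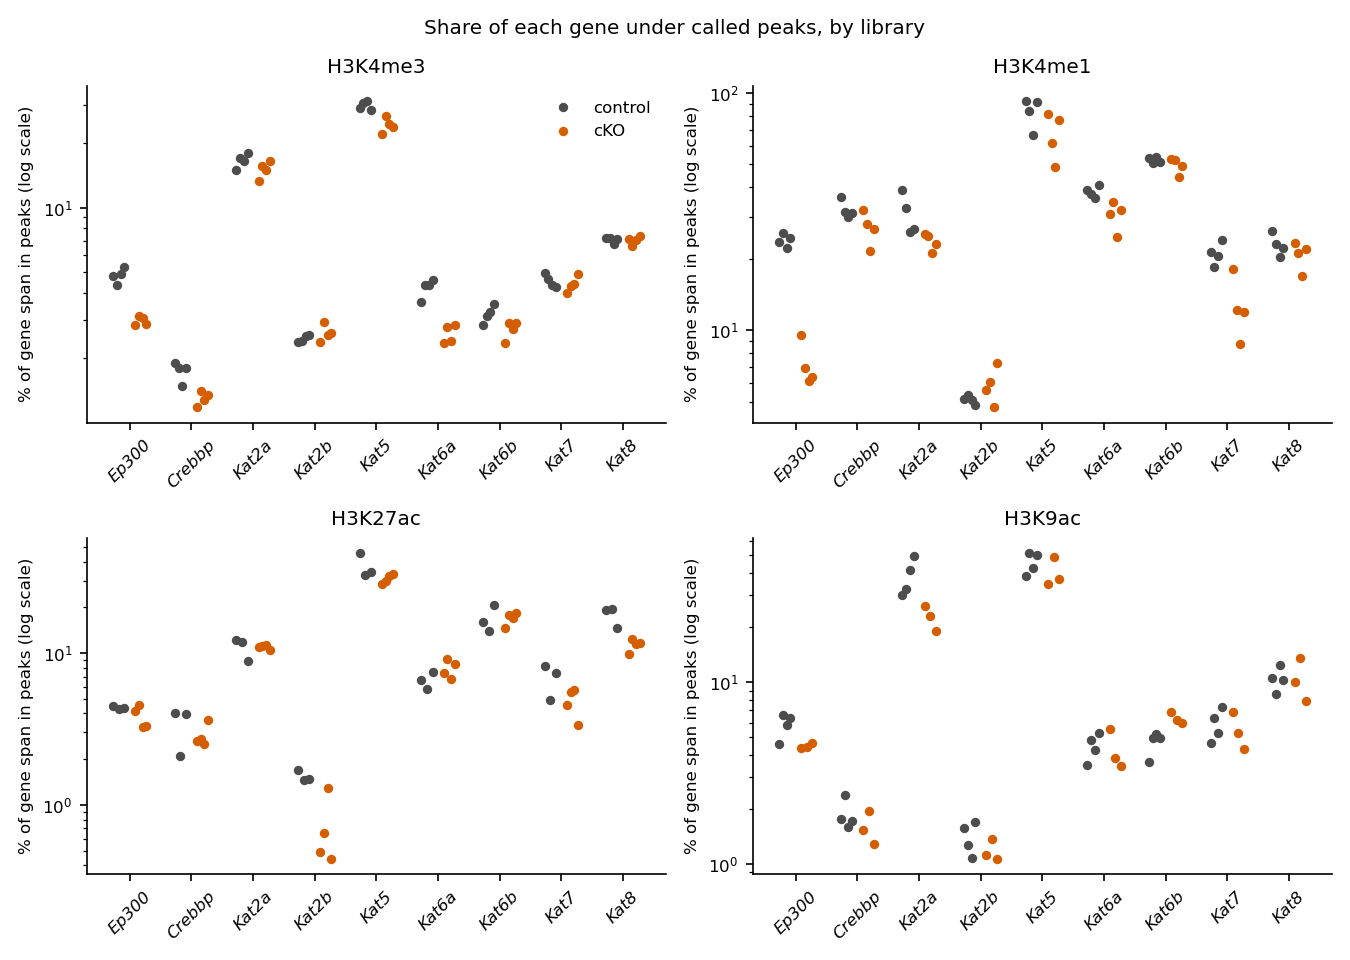
Percent of each gene's span under called peaks (vertical axis, log scale) in each ChIP library, 1 panel per mark, grey for control and orange for cKO. Ep300 stands apart for H3K4me1, at 22.2% to 25.7% in control and 6.09% to 9.55% in cKO libraries, and H3K4me3 is lower in cKO in Ep300, Kat6a, Crebbp and Kat5.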

How the data were processed

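The 9 genes and the lists of partner and other genes were chosen with earlier results of these data known. RNA files as deposited by the authors hold 1 whole-number count per Ensembl ID, and the aligner and counter are not given in the sources used here. Symbols came from a supplied table (99.3% of neuron and 98.9% of whole CA IDs matched). CPM values were computed here from the counts. Counts were tested with edgeR 4.0.16 in R 4.3.3 (quasi-likelihood, TMM, filterByExpr), with Benjamini-Hochberg adjustment over all genes tested. DESeq2 1.42.0 was an alternative.

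ChIP files are the authors' peak lists, 1 per library, with each peak's length, fold enrichment (a ratio) and −log10 p-value and q-value. MACS 2.1.0.20140616 (2.1.1.20160309 for H3K4me3) made them at a q-value cutoff of 0.1, with broad calling for H3K4me1, per the file headers. Headers give 24.4 to 41.6 M tags per ChIP library and inputs of 31.3 M (cKO) and 28.8 M (control). Per the submitters' processing notes the builds are mm10 and GRCm38. Overlapping peaks were merged, and bp in peaks were counted around RefSeq starts (GRCm38.p6), 5'-most where a gene had several there, and over gene spans. Some starts, such as those of Crebbp, Kat5 and Kat6b, lie inside the gene's span. The covered lengths were compared with limma 3.58.1 on log2(bp + 100). Covered length says nothing of the height of a peak.

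Kat6a has no start in the table used. Scripts were tested on simulated data. The named genes are the members, Setd1b, list genes called or of smallest p, and the 2 genes most like each member. The 3'-most start, whole peak length, sequencing lane in ChIP and all span measures were added after the data were seen.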

Additional observations from a re-analysis of the deposited data

Results flagged for a closer look

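In 5 of 120 groups of libraries 1 library stood apart from the rest of its group, and about 1 group in 20 does so by chance. Groups of 3 libraries were not screened, which leaves out neuron RNA of both labels, H3K27ac control and H3K9ac cKO. Kat6b in whole CA libraries labelled cKO was lowest in replicate 6, at 70.88 CPM, with 81.09 CPM as the nearest value. The bp in H3K9ac peaks around the Kat6b start were highest in control replicate 3, at 2375 bp with 2329 bp next to it, a gap of small size in a tight group. Around the Kat5 start H3K9ac covered 1967 bp in control replicate 1, the lowest, and 2443 bp in the nearest library. H3K4me1 around the Kat2a start covered 3794 bp in control replicate 3 and the full window in the others. H3K9ac covered 3.62% of the Kat6b span in control replicate 1 and 4.94% in the nearest library.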

How the results depend on the processing

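No acetyltransferase gene was called for genotype in RNA under any alternative: the smallest adjusted p was 0.259 in neuron RNA (108 values), 0.127 in whole CA (189) and 0.448 for the difference between materials (99), and 4, 11 and 9 of these uncalled values changed sign. Between the materials 73 of 81 values kept their call and the other 8 were those of Kat2b and Kat6a. Of values called in at least 1 setting, 2 changed sign: Crebbp H3K4me1 at the start with the whole length of the peaks (-1.38) and Kat6a H3K4me1 over the span with a −log10 q-value of at least 5 (5.13, a setting that moved the median of all genes to 1.63). The counts over all genes moved as follows, and the cause was not tested. Neuron RNA, 539 called, gave 930 at an adjusted p under 0.1, 840 with DESeq2 and 207 to 482 with 1 library left out. Whole CA RNA, 640 called, gave 207 with replicates 1 to 3 and 224 with replicates 4 to 6. The difference between materials, 28 called, gave 69 with no filter, 75 with DESeq2 and 18 to 25 with 1 library left out. H3K4me3 starts, 2012 called, gave 168 within 1000 bp, 4475 within 5000 bp, 3936 with whole peaks and 1272 to 2270 with 1 library left out. H3K27ac starts, 62 called, gave 37 within 1000 bp, 0 with an offset of 1000 bp, 129 with windows covered to under 50% of their length set to 0, 37 with lane as a term and 2 to 65 with 1 library left out. H3K9ac starts, 78 called, gave 41 within 1000 bp, 285 within 5000 bp, 202 with that minimum, 187 with whole peaks, 40 with lane and 9 to 60 with 1 library left out. H3K4me1 starts, 284 called, gave 161 within 1000 bp, 1320 within 5000 bp, 1293 with whole peaks and 174 to 359 with 1 library left out. Over spans, H3K27ac (129 called) gave 71 with the larger offset, 72 with lane and 15 to 129 with 1 library left out. H3K9ac spans (269) gave 628 with the stricter q-value, 119 with lane and 3 to 251. H3K4me1 spans (1551) gave 555 with the stricter q-value and 830 to 1493. H3K4me3 spans (4531) gave 3517 to 4793.

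Whether the replicate numbers pair the libraries is not given, and the main tests used no pairing. Deviations of same-numbered libraries from their group means had r from -0.172 to 0.313 in neuron RNA and from -0.034 to 0.111 in whole CA RNA. So few libraries cannot decide whether they are paired. Blocked by replicate number, the counts were 327 in neuron RNA, 839 in whole CA RNA, 1094 for H3K4me3 starts, 3297 for H3K4me3 spans, 14 for H3K4me1 starts, 250 for H3K4me1 spans, and 0 for H3K27ac and H3K9ac starts and spans. Under that block Crebbp H3K4me3 over the span was no longer called (adjusted p = 0.06), and Kat2a (0.0418) and Kat6b (0.0416) were. The depth of the ChIP libraries limits peak lengths, since a weak edge may fall under the caller's threshold.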
